A study of Arabidopsis thaliana with 36 samples.

Results

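The seedlings described here lacked UVR8, the UV-B photoreceptor of *Arabidopsis thaliana*, and the comparison is that of *uvr8-6* under white light supplemented with UV-B (+UVB, 3 libraries) with *uvr8-6* under white light alone (WL, 3 libraries). These are 6 of the 36 RNA-seq libraries of the series, and the genes are the 20926 of 33602 counted genes that the study also lists in its normalized table. Whole seedlings of the Columbia accession, 7 days old and 30 to a sample, were grown on sucrose-containing medium in white light of 60 µmol m-2 s-1 and then kept for 3 h in WL, +UVB (0.06 mW/cm2), white light with added far-red (+FR, a low red to far-red ratio that mimics shade) or +FR+UVB. The 12 groups of 3 separately plated samples came from *uvr8-6*, from wild type (Col) and from *hfr1-101*, a line without the bHLH factor HFR1 that still has UVR8, each in the 4 light conditions. The control *uvr8* seedlings carried the same mutation, and by design UV-B was the only difference from the treated ones.

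UVR8 absorbs UV-B, changes from a dimer to a monomer, binds the ubiquitin ligase COP1 and thereby lets the transcription factors HY5 and HYH accumulate, which switch on the genes of flavonoid sunscreens, photolyases and the RUP repressors of UVR8 itself. UV-B also reaches DNA, chloroplasts and mitochondria without any photoreceptor, and the responses known from such exposure include glutathione S-transferases, glycosyltransferases and efflux pumps for toxic compounds, the alternative respiratory chain and the DNA damage response. What was compared here is which of these transcripts moved when the receptor was missing.

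The UVR8 transcript itself was counted at 12.2 to 17.0 CPM (counts scaled to a common library size by the trimmed mean of M-values) in the 12 *uvr8* libraries and at 65.6 to 110 CPM in the other 24, so that the *uvr8* libraries and the others were separated as their labels say. Col and *hfr1* share that range and are not told apart by this transcript. It did not pass the test for a UV-B effect in *uvr8* (log2 fold change -0.18, standard error 0.09, adjusted p = 0.300). Depth was 13476436 to 19999540 counts in the 6 libraries. Of these 6, the second WL library and the third +UVB library stood apart. The summed level of 18 salicylate and pathogen defence genes was 299 CPM in the second WL library against 76.0 and 81.5 CPM in the first and the third, and FRK1, a kinase gene of pathogen recognition, was at 18.9 CPM there against 0.438 and 0.480 CPM. The third +UVB library had the lowest median over the genes that rose, and the counts without each of these libraries are given below.

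UV-B raised 151 genes and lowered 64 in *uvr8* with more than a 2-fold change and an adjusted p below 0.05 (edgeR's quasi-likelihood test over all 36 libraries, Benjamini-Hochberg over all genes tested), which is 0.722% and 0.306% of the genes tested. The rises were the larger in size: 57 of the 151 exceeded 4-fold and 24 exceeded 8-fold, while 17 of the 64 falls exceeded 4-fold and 0 exceeded 8-fold. The median log2 fold change was 1.60 over the genes that rose and -1.5 over those that fell, against -0.01 over all genes tested. The 3 +UVB libraries lay wholly above the 3 WL libraries for 147 of the 151 and wholly below them for 60 of the 64, and such separation was seen upwards in 8.36% and downwards in 9.72% of all genes tested. With no minimum fold, 356 genes rose (1.70%) and 204 fell (0.975%). The threshold separated neighbours of almost equal size: UGT75B1 at a log2 fold change of 1.007 was inside and AT4G24160 at 0.983 was outside, and among the falls PME2 at -1.019 was inside and UGT71C1 at -0.987 was outside.

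The size of this set depended on the libraries used to estimate the spread. In a fit to the 12 *uvr8* libraries alone 9 genes were called (6 rises and 3 falls), and in a fit to the 6 libraries of the contrast 47 were. The estimated biological coefficient of variation was 18.1% over the *uvr8* libraries, 12.9% over those of Col and 15.7% over all 36. Leaving out the third +UVB library raised the number called to 472, and leaving out the second WL library raised it to 328. Without the first or the second +UVB library 111 or 99 genes were called, and without the first or the third WL library 109 or 110. Called under each of these 6 omissions were 61 of the 151 rises and 8 of the 64 falls, and the genes named below as stable are among them. Stable refers to these omissions alone and not to the 2 smaller fits. UGT74E2 and AT1G66800, for example, were stable but were called in neither smaller fit. Among the genes called under only 1 to 3 of the 6 omissions were UGT73C1, MRN1, CYP71A16, AT5G47950, TIP2;3, ZAT6, ZAT11, CYP81D8, DIR5, AT2G25150, AT4G37700, NCED9, AT2G04070, AT3G54530 and AT5G24640. Of these, TIP2;3 ranged from -2.94 to -1.70 and CYP81D8 from 2.61 to 4.39 on the log2 scale over the omissions.

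Detoxification genes were among the 12 largest rises named here, behind AT1G55230, AT2G38823 and AT3G54530, which are described below. GSTU25 (AT1G17180, chr1:5872024-5873124 on TAIR10.1), a tau-class glutathione S-transferase that couples reactive compounds to glutathione, was at 4.00, 8.73 and 4.36 CPM in WL and at 204, 289 and 50.2 CPM in +UVB. The lowest treated library was well above the highest control, and the log2 fold change was 4.99 (standard error 0.63, adjusted p = 5.22e-05). UGT74E2 (AT1G05680), a glucosyltransferase of the auxin indole-3-butyric acid that responds to hydrogen peroxide, was at 1.92, 3.82 and 0.863 CPM in WL and at 67.4, 101 and 18 CPM in +UVB, a log2 fold change of 4.81 (standard error 0.71, adjusted p = 0.000260). Both are stable in the sense above. The neighbour GSTU24 (AT1G17170) rose from 20.2, 33.2 and 18.4 CPM to 173, 194 and 73.6 CPM (log2 fold change 2.62), and since it adjoins the similar GSTU25 the division of reads between them is uncertain.

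The tau class as a whole, counted after its values had been seen, had 8 of 26 tested members among the rises (GSTU1, GSTU2, GSTU4, GSTU7, GSTU9, GSTU22, GSTU24 and GSTU25) and 0 among the falls, while 0 of 12 members of the phi class were called, against 0.722% rising and 0.306% falling over all genes tested. GSTU26, which lies in the same array as GSTU24 and GSTU25, was at 40.2, 31.9 and 43.2 CPM in WL and at 19.6, 20.8 and 22.2 CPM in +UVB, lower in every treated library but short of the minimum fold (log2 fold change -0.88, adjusted p = 0.0443). Of 54 family 1 glycosyltransferases named UGT, counted likewise after the fact, 9 rose and 0 fell. UGT73B5, a glycosyltransferase known from redox and defence responses, was at 11.8, 16.4 and 8.49 CPM in WL and 42.9, 50.1 and 30.7 CPM in +UVB (log2 fold change 1.76, adjusted p = 0.000362).

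Some export genes were also among the rises. Of the 6 tested genes of a MATE array on chromosome 2, of 20 ABCB and of 37 ABCG transporters 2, 2 and 1 rose, counts made after the values had been seen and to be read against the same 0.722%. AT2G04050 and AT2G04070, which encode efflux proteins of that array and are similar enough for their reads to be confused, were near 0 in WL. AT2G04050 was at 0.876, 0.744 and 0.480 CPM in WL and at 9.97, 29.9 and 3.32 CPM in +UVB (log2 fold change 4.37, standard error 0.83, adjusted p = 0.00305). AT2G04070 went from 0.164, 1.04 and 0.144 CPM to 7.79, 24 and 2.40 CPM (4.64, standard error 0.98, adjusted p = 0.00734), a call that was lost without the second +UVB, the first WL or the third WL library (log2 fold changes 3.45, 4.27 and 4.20). DTX1, in the same array, was at 1.92, 5.55 and 1.82 CPM in WL and 14, 20.7 and 5.48 CPM in +UVB without passing the test (2.11, adjusted p = 0.0618). The remaining members AT2G04080, AT2G04090 and AT2G04100 had log2 fold changes of 0.14, -0.57 and 0.08. Of the ABC transporters, ABCB11 rose from 5.92, 14.3 and 7.24 CPM to 50.4, 91.6 and 30.4 CPM (log2 fold change 2.65), ABCB4, an auxin transporter, rose by 1.57 and ABCC3, which carries glutathione conjugates and chlorophyll catabolites, by 1.86 on the log2 scale.

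Of the rises with a known role in or at mitochondria, 6 picked from the called genes are given here with no count of such genes behind them. AOX1A, the alternative oxidase that bypasses the cytochrome pathway, was at 35.9, 34.2 and 27.7 CPM in WL and 93.1, 105 and 56.7 CPM in +UVB (log2 fold change 1.38, standard error 0.20, adjusted p = 0.000221). NDB2, the external NADH dehydrogenase that feeds AOX1A, rose from 19.4, 26.6 and 20.4 CPM to 71.6, 80.0 and 33.9 CPM (1.48, adjusted p = 0.00117). AT5G51440, a small heat shock protein of the HSP20 type, rose from 4.22, 4.86 and 2.93 CPM to 44.4, 38.1 and 16.4 CPM (3.04, standard error 0.36, adjusted p = 3.87e-05) and was called under each omission and in both smaller fits. UPOX, a mitochondrial marker of oxidative stress, was at 2.25, 1.79 and 2.30 CPM in WL and 8.42, 17.3 and 3.32 CPM in +UVB (2.19), and BCS1, an AAA-type ATPase of the mitochondrial outer membrane, rose by 2.29 on the log2 scale. ANAC013, a membrane-bound NAC transcription factor of this response, rose from 10.4, 11.9 and 10 CPM to 26.5, 26.9 and 18.7 CPM (1.16, standard error 0.15, adjusted p = 5.82e-05).

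**Figure D1:**
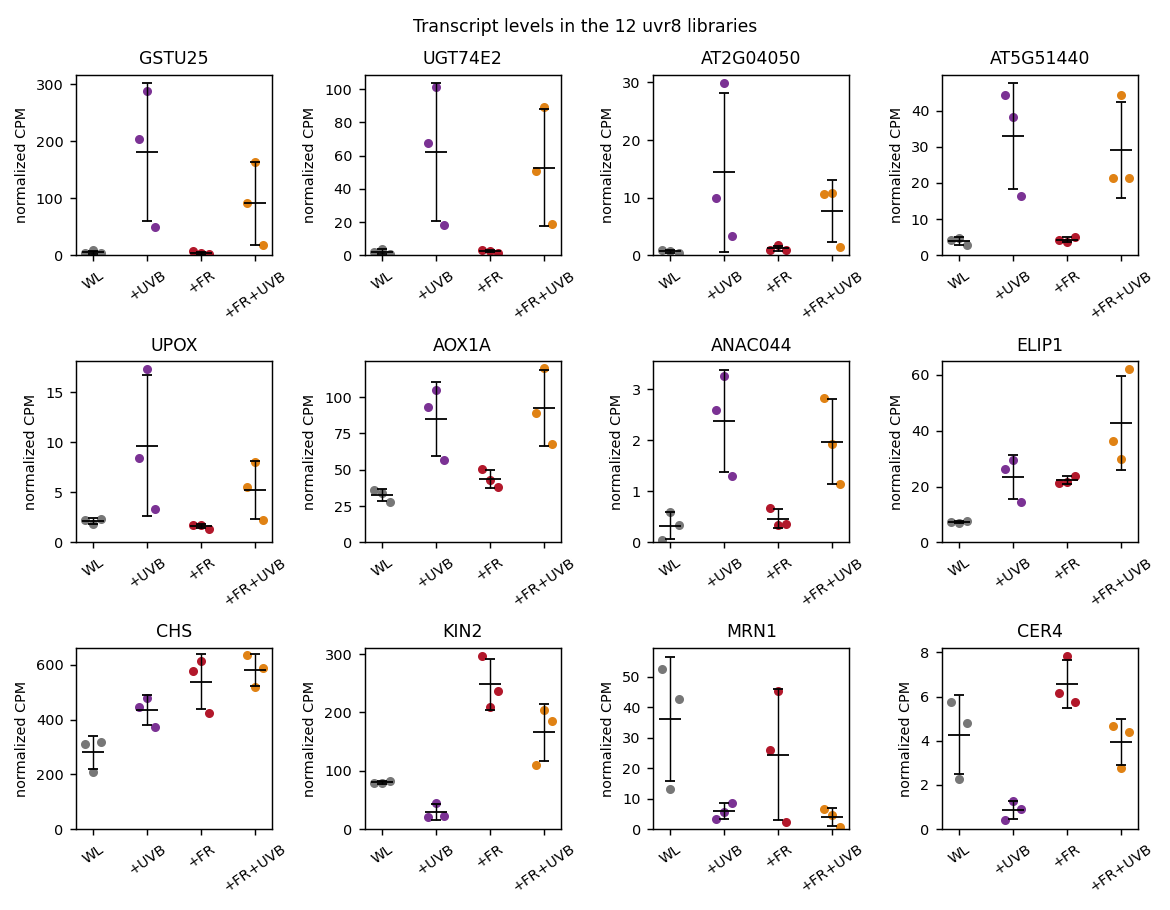
Normalized CPM (vertical axes, starting at 0) of 12 genes in the 12 *uvr8* libraries by light condition; points are libraries, and the bars give the mean and the SD of 3. GSTU25 reached 50.2 to 289 CPM in +UVB against 4.00 to 8.73 CPM in WL, the third +UVB library being the lowest. CHS was at 374 to 480 CPM in +UVB and 209 to 318 CPM in WL, a fitted change of less than 2-fold. CER4 was lower in all 3 +UVB libraries.

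The remaining rises named by size are of genes without a well-known role. AT1G55230 (a DUF716 protein) was at or under 3 raw counts in every WL library and at 1.89, 6.28 and 0.829 CPM in +UVB, at least 19.7-fold higher than that floor averaged over the WL group. AT2G38823, which encodes an uncharacterized protein, rose from 0.110, 0.496 and 0.0959 CPM to 8.21, 16.9 and 4.19 CPM (log2 fold change 5.34), and AT2G18193, a P-loop nucleoside triphosphatase, from 5.37, 5.11 and 4.03 CPM to 87.1, 102 and 24.8 CPM (3.88). AT3G54530, AT5G24640 and DIR5, a dirigent-like protein, had log2 fold changes of 5.13, 4.33 and 4.48, and each lost its call without some single library. AT4G12735 and AT2G32020, an acyl-CoA N-acyltransferase, rose by 4.26 and 3.53. The 6 rises that passed even the fit to the *uvr8* libraries alone were AT5G51440, AT5G22140 (an oxidoreductase, 4.70 to 6.25 CPM in WL and 21.0 to 70.7 CPM in +UVB), AT1G60750 (an aldo-keto reductase type protein), AT4G01870 (a TolB-like protein), AT5G43450 (a 2-oxoglutarate-dependent oxygenase) and Tic20-IV, a subunit of the chloroplast import channel. These 6 were singled out after their values had been seen.

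A few stable rises have roles in sulfur metabolism, and they were picked from the called genes rather than counted from a list. APR3, an APS reductase that makes sulfite, was at 97.1, 92.4 and 85.7 CPM in WL and 198, 226 and 172 CPM in +UVB (log2 fold change 1.12, adjusted p = 0.00245). SERAT2;1, a serine acetyltransferase of cysteine synthesis, rose from 38.6, 42.5 and 38.9 CPM to 87.6, 98.4 and 75.5 CPM (1.13, adjusted p = 0.000989). SOT12, a sulfotransferase of salicylate and other small molecules, rose from 14.2, 13 and 14.2 CPM to 97.1, 118 and 45.8 CPM (2.65, adjusted p = 0.000125). No control library reached a treated one for any of these genes.

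The promoters were searched for short patterns, which had no part in choosing the genes. The 250 bases before the annotated start of each gene were read from TAIR10.1 (RefSeq) for 20813 nuclear genes, among them all 151 rises and all 64 falls. The letters CTTG and CAAG with 5 bases between them, a pattern that reads the same on both strands and is the core of the mitochondrial dysfunction motif that ANAC013 and its relatives bind, occurred in 14 of the 151 rises (9.27%), in 0 of the 64 falls and in 119 of all promoters (0.572%). TGACG, the core bound by TGA-type bZIP factors, occurred on either strand in 57 of the 151 rises (37.7%), in 17.2% of the falls and in 19.4% of all promoters. Both patterns were chosen after the genes had been seen. In 4 rises both occurred, and 67 of the 151 had at least 1 of them, so that most rises carried neither.

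The stretches below are those around CTTG and CAAG in 8 of the rises. The search itself fixed these letters and their spacing, so that only the bases between and around them were free to differ. Each is given 5′ to 3′ on the strand of its gene, with CTTG and CAAG in capitals, and ends before the annotated start of transcription. They are chr2:9254315-9254351 for UPOX, chr4:2572336-2572372 for NDB2, chr2:1339659-1339695 and chr2:1339600-1339636 for AT2G04050, chr1:523437-523473 for ABCB11, chr3:228998-229034 for ANAC044, chr1:26550659-26550695 for SRO3, chr4:7494319-7494355 for AT4G12735 and chr5:8436260-8436296 for AT5G24640.
UPOX: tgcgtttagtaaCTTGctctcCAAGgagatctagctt
NDB2: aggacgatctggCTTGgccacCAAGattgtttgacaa
AT2G04050, distal: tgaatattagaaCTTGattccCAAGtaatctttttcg
AT2G04050, proximal: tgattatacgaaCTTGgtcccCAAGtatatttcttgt
ABCB11: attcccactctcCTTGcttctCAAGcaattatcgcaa
ANAC044: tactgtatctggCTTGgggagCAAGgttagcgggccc
SRO3: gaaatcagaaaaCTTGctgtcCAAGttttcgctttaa
AT4G12735: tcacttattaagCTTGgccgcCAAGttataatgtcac
AT5G24640: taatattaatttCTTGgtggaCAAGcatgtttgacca

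Read from the other side, 14 of the 119 genes with the spaced pattern rose in *uvr8* (11.8%, against 0.722% of all genes tested), and 15 rose in Col under +UVB (12.6%, against 6.68%). The share was largest in *hfr1* under +UVB, where 26 rose (21.8%, against 7.96%). In *uvr8* +FR+UVB against +FR 9 rose (7.56%, against 0.616%). Among the rises of *uvr8* the pattern was carried by 9 of the 84 that were also called under +FR+UVB (10.7%) and by 5 of the 67 that were not (7.46%). Of the Col rises with a promoter that were not called in *uvr8* 8 of 1331 carried it (0.601%). These shares are descriptions without a test, and a match of letters is not evidence that a factor is bound.

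For TGACG the stretches of 2 tau-class genes, a glycosyltransferase gene and an efflux gene are printed with the 5 bases in capitals, CGTCA being the same core on the other strand. They are chr1:5871925-5871953 for GSTU25, chr1:29474074-29474102 for GSTU22, chr4:16344916-16344944 for UGT73B3 and chr2:1339511-1339539 for AT2G04050.
GSTU25: ctaaataatctcTGACGacttttaaacta
GSTU22: agataagcataaTGACGtaagcagtggcc
UGT73B3: accggaaacaagTGACGtatgtcacgacg
AT2G04050: gaaactatacaaCGTCAttgcgaaaaact

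Of 8 other patterns searched on both strands, the W-box forms TTGACC and TTGACT, read by WRKY factors, occurred in 21.2% and 25.8% of the rises against 12.3% and 19.1% of all promoters, and in 6.25% and 23.4% of the falls. The G-box CACGTG, the letters to which HY5 and the PIF factors bind, was found in 8.61% of the rises and 7.32% of all promoters. For the abscisic acid element ACGTGT the shares were 17.2% and 11.2%, for the heat shock element GAANNTTC 12.6% and 9.43%, for the stress element CGCGTT 3.97% and 2.86%, for the cold element CCGAC 12.6% and 12.8%, and for the evening element AAAATATCT 1.99% and 2.44%. W-box and TGACG letters can share the bases TGAC, so that a single stretch may count for both.

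Roots were harvested with the shoots, and some of the falls are of genes best known from roots. MRN1 (AT5G42600, chr5:17053453-17058245), marneral synthase of the root triterpenes, was at 52.5, 13.3 and 42.9 CPM in WL and at 3.44, 5.54 and 8.66 CPM in +UVB (log2 fold change -2.59, standard error 0.67, adjusted p = 0.0321). Its neighbour in the marneral gene cluster, the oxidase gene CYP71A16, fell from 26.2, 18.2 and 31.1 CPM to 5.19, 6.56 and 4.93 CPM (-2.17, adjusted p = 0.0160), and CYP705A12, the remaining member, had a log2 fold change of -1.63 without passing the test (adjusted p = 0.0842). In the cluster of thalianol, another root triterpene, the acyltransferase genes AT5G47980 (15.8, 14.5 and 15.4 CPM against 4.21, 3.86 and 2.95 CPM, -2.06) and AT5G47950 (-1.12) fell. Thalianol synthase THAS1, CYP708A2 and CYP705A5 had log2 fold changes of -1.37, -1.36 and -1.39 with adjusted p of 0.189, 0.189 and 0.104. RABA4C and AT5G47970, which lie between these genes and have other functions, had log2 fold changes of 0.12 and 0.09. Both clusters were picked out after their values had been seen.

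The other falls named by size include genes of cell walls and lipids. EXPA16, an expansin that loosens cell walls, fell from 43.7, 20.7 and 56.7 CPM to 5.54, 11.7 and 5.80 CPM (-2.38, adjusted p = 0.00937), and ATCSLB05, a cellulose synthase-like gene, from 6.46, 5.6 and 7.82 CPM to 0.491, 0.652 and 2.03 CPM (-2.59, adjusted p = 0.000434). CER4, the reductase that makes the primary alcohols of wax, was at 5.75, 2.28 and 4.8 CPM in WL and 0.421, 1.26 and 0.921 CPM in +UVB (-2.24, adjusted p = 0.00204). AT5G46890 and AT5G46900, adjoining lipid-transfer protein genes whose reads may be shared, fell by 1.87 and 1.99 on the log2 scale and were called in every fit. Stable falls were also AT1G14960, a polyketide cyclase-like gene (39.4, 28.6 and 31.9 CPM against 7.93, 6.70 and 8.48 CPM, -2.11), and AT1G66800, an NAD(P)-binding Rossmann-fold gene (-1.92). The acyltransferase gene AT2G25150 (-2.38) and the uncharacterized AT4G37700 (-2.09) were called with all libraries and lost the call under several omissions.

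Of 6 root markers, TIP2;3, a tonoplast aquaporin, was the only one called. It was at 36, 7.54 and 33.3 CPM in WL and 3.51, 3.17 and 11.7 CPM in +UVB, so that the second WL library lay within the treated range (log2 fold change -2.04, adjusted p = 0.0257). The other 5, the iron transporter IRT1, the phosphate transporter PHT1;1, the endodermal genes MYB36 and CASP1 and the epidermal factor WER, had log2 fold changes of -0.82 to 0.02. Their levels ranged from 1.57 CPM to 95.2 CPM, and none of the 6 was at 0. The summed level of the 6 markers was 141 to 206 CPM in WL and 101 to 152 CPM in +UVB, overlapping between the groups. In bulk seedlings a smaller share of root cells and less RNA per cell cannot be told apart, and the part of the markers in the falls was not tested.

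The same exposure of the same mutant was repeated in 6 libraries that are not in the contrast above, +FR+UVB against +FR. There, 129 genes rose (0.616%) and 50 fell (0.239%). Of the 151 rises 84 were called as rises again (55.6%) and 150 had a positive log2 fold change, the median over all 151 being 1.37. Of the 64 falls 16 were called again (25.0%) and 62 had a negative value, the median over all 64 being -0.97. GSTU25 was at 7.03, 3.68 and 1.78 CPM in +FR and 92.2, 163 and 18.4 CPM in +FR+UVB (log2 fold change 4.44, adjusted p = 0.000127), and AT5G51440 at 4.19, 3.74 and 5.22 CPM and 21.3, 44.4 and 21.5 CPM (2.72, adjusted p = 5.48e-05). MRN1 was at 26.1, 45.3 and 2.19 CPM in +FR and 6.52, 4.53 and 0.640 CPM in +FR+UVB (-2.67, adjusted p = 0.0389), its lowest control library lying inside the treated range. CER4, by contrast, was at 6.15, 7.82 and 5.74 CPM and 4.69, 2.76 and 4.40 CPM (-0.73, adjusted p = 0.316).

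**Figure D2:**
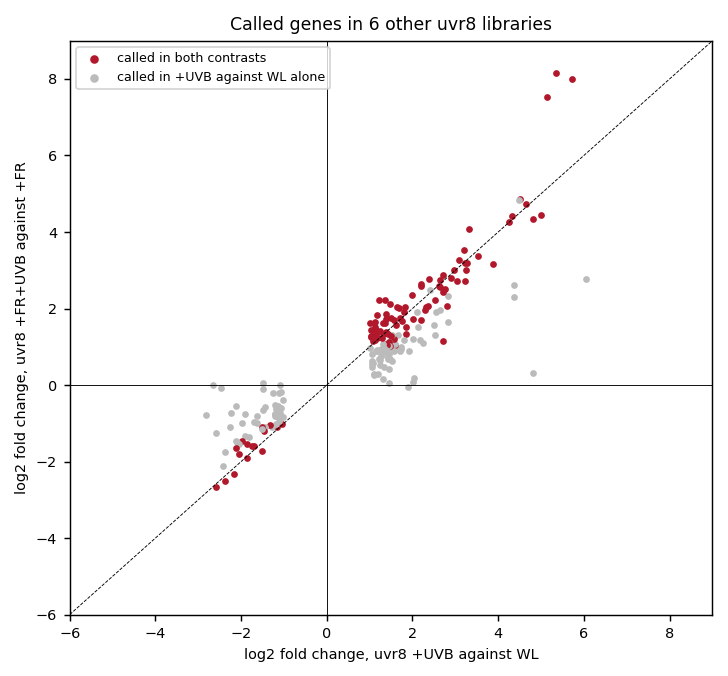
Log2 fold change of the 215 called genes of *uvr8* in +UVB against WL (horizontal) and in the separate libraries of +FR+UVB against +FR (vertical); the dashed line marks equal change, and filled red points were called in the same direction in both. All but 3 genes have the same sign in both contrasts, with 84 rises and 16 falls called in both.

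The difference between the UV-B effects in the 2 light backgrounds was called for 0 genes (edgeR's quasi-likelihood test, 817 genes at an unadjusted p under 0.05, 1 gene by DESeq2). Averaged over both backgrounds, 6 libraries against 6, UV-B raised 262 genes and lowered 147 in *uvr8*. The count of 84 shared rises was 44 without the second +FR+UVB library, 53 without the second +FR library and 55 without the second +UVB library. With the 12 *uvr8* libraries alone it was 5.

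Library by library, the median log2 difference of the 151 rises from the mean of *uvr8* WL was 1.53, 1.67 and 0.93 in +UVB and 1.29, 1.66 and 0.72 in +FR+UVB, so that the third library was lowest in both treatments. The controls lay at -0.13, 0.23 and -0.19 in WL and at 0.28, -0.09 and -0.31 in +FR. The gap between *uvr8* WL and +UVB follows from the choice of the genes in these libraries. For the 64 falls the medians were -1.43, -1.40 and -1.07 in +UVB and -0.78, -1.13 and -1.38 in +FR+UVB. In Col +UVB, whose libraries entered the choice of the genes only through the estimate of the spread, the rises stood at 1.04, 1.03 and 1.11 and in *hfr1* +UVB at 1.33, 0.81 and 1.17.

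**Figure D3:**
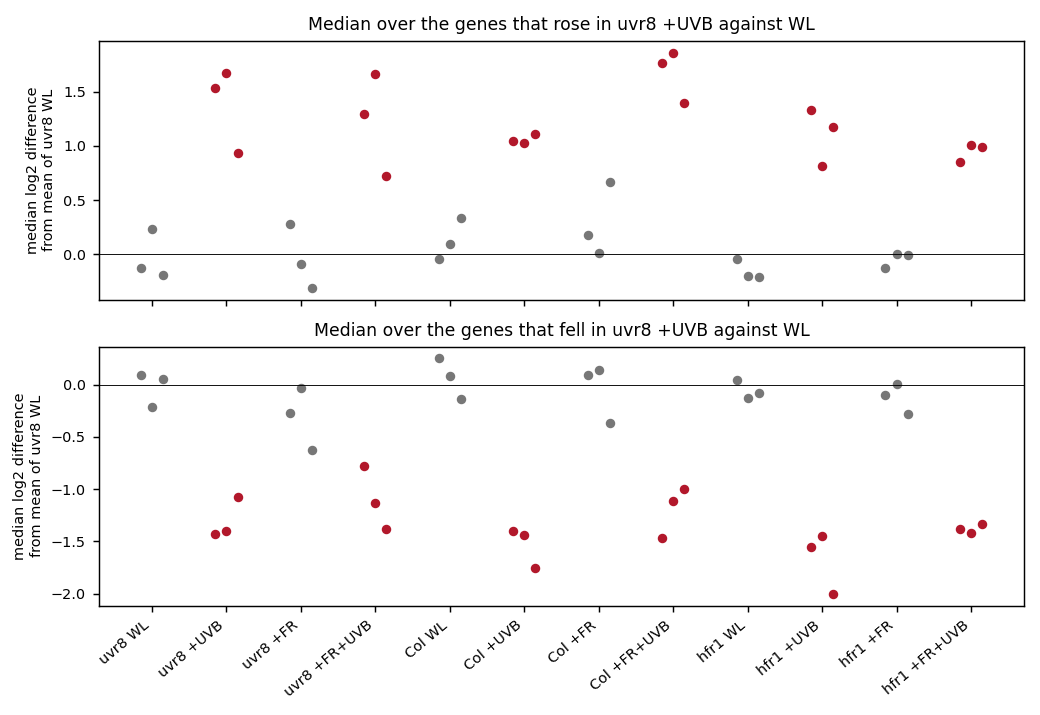
Median log2 difference from the mean of *uvr8* WL over the 151 genes that rose (top) and the 64 that fell (bottom), for each of the 36 libraries; red points are libraries with UV-B and grey points those without. The *uvr8* +UVB libraries stand at 1.53, 1.67 and 0.93 for the rises, and the libraries with UV-B of all 3 genotypes lie above those without for the rises and below them for the falls. The genes were chosen in the *uvr8* WL and +UVB libraries, so that the separation of these libraries follows from the choice.

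In wild type, UV-B raised 1398 genes (6.68%) and lowered 1421 (6.79%), and in *hfr1* it raised 1666 (7.96%) and lowered 1429 (6.83%). Of the 151 rises of *uvr8* 66 also rose in Col (43.7%) and 108 in *hfr1* (71.5%). The median log2 fold change over all 151 was 0.96 in Col and 1.66 in *hfr1*. Of the 64 falls 51 also fell in Col (79.7%) and 51 in *hfr1* (79.7%), and the medians over all 64 were -1.88 and -1.89. Called in both *uvr8* contrasts, in Col and in *hfr1* alike were 39 of the rises and 13 of the falls. The comparison in the other direction gave small shares: of the 1398 Col rises 66 (4.72%) and of the 1421 Col falls 51 (3.59%) were called in *uvr8*. The median of the Col rises was 1.45 in Col and 0.21 in *uvr8*, and that of the Col falls was -1.42 and -0.24. The 95% interval of the *uvr8* effect lay within a 2-fold change for 1041 of the Col rises (74.5%) and 832 of the Col falls (58.6%).

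**Figure D4:**
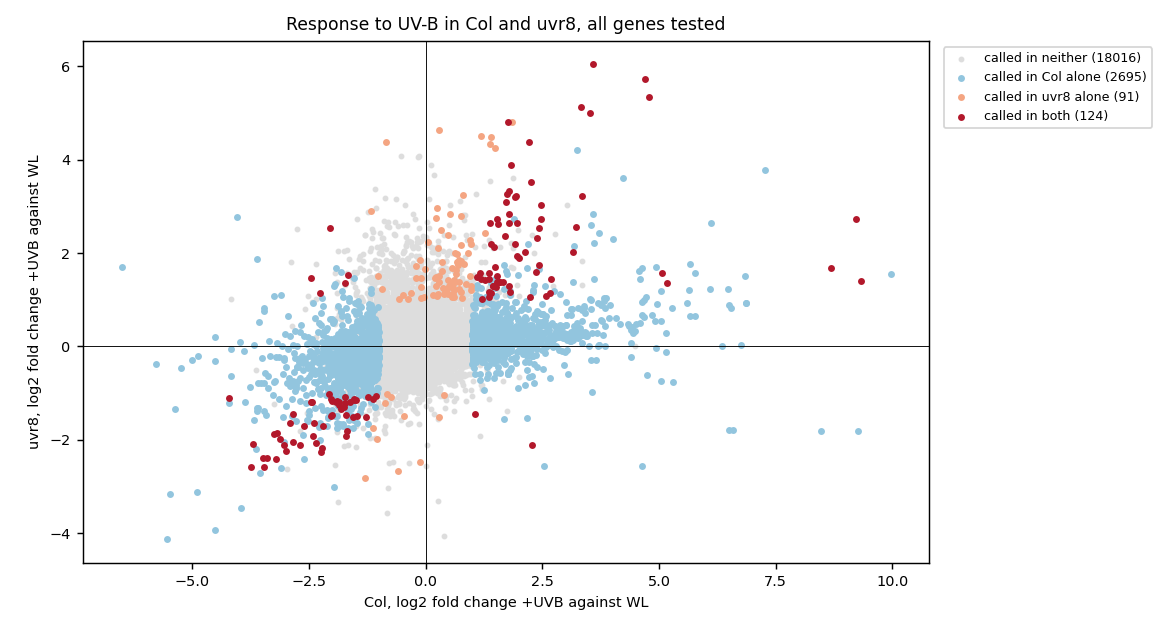
Log2 fold change of +UVB against WL in Col (horizontal) and in *uvr8* (vertical) for the 20926 genes tested, coloured by where each was called. Most genes called in Col alone (2695) spread along the horizontal axis with a *uvr8* change near 0, while 124 were called in both genotypes and 91 in *uvr8* alone.

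The test of the difference itself, the UV-B effect in *uvr8* minus that in Col, called 1030 genes higher (4.92%) and 1042 lower (4.98%) in *uvr8*, and against *hfr1* it called 735 higher (3.51%) and 866 lower (4.14%). With libraries scaled by their size alone the split against Col was 1775 higher and 672 lower, and against *hfr1* 1035 higher and 646 lower, the median difference over all genes moving from 0.04 to 0.26 and from 0.02 to 0.16. The UV-B effect in *uvr8* itself moved by less, its median over all genes going from -0.01 to 0.04. Among the 151 rises 40 had a higher effect in *uvr8* than in Col and 9 a lower one, with a median difference of 0.92. Against *hfr1* 11 had a higher and 12 a lower effect in *uvr8*, with a median difference of 0.23. For both comparisons the 151 genes were chosen in the same *uvr8* libraries. In the +FR libraries, which entered that choice only through the estimate of the spread, 12 of the 151 had a higher and 20 a lower UV-B effect in *uvr8* than in Col, against 5.78% and 5.80% of all genes, with a median difference of 0.17, and 96 of the 151 rose in Col +FR+UVB against +FR (63.6%, against 8.27%). The comparison under +FR was added after the values had been seen. The rises that differed from Col in both backgrounds were 9 with the larger effect in *uvr8* and 8 with the smaller.

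For UGT74E2, the MATE genes, AT4G12735 and AT2G18193 the difference from Col was called under +UVB and not under +FR. Whether the differences in the 2 backgrounds differ from each other was not tested. Against *hfr1*, which has UVR8, the difference under +UVB was not called for any of these genes. It was 1.06 for UGT74E2 (adjusted p = 0.521), 2.05 for AT2G04050 (adjusted p = 0.233) and -1.03 for AT2G04070 (adjusted p = 0.799). For AT4G12735 it was 0.92 (adjusted p = 0.665) and for AT2G18193 1.12 (adjusted p = 0.311). The values that follow are against Col. UGT74E2 had a larger effect in *uvr8* than in Col under +UVB (log2 difference 3.04, adjusted p = 0.0142) and a difference of 0.53 under +FR (adjusted p = 0.702). For AT2G04050 the differences were 5.2 (adjusted p = 0.000569) and 0.62 (adjusted p = 0.694), and for AT2G04070 they were 4.35 (adjusted p = 0.0132) and 1.09 (adjusted p = 0.636). The Col controls of both were high and variable. AT2G04050 was at 8.20 ± 6.39 CPM in Col WL and 4.61 ± 0.584 CPM in Col +UVB (SD, n = 3), against a mean of 0.700 CPM in *uvr8* WL. AT2G04070 was at 1.89 ± 1.48 and 2.33 ± 0.627 CPM in Col, against 0.450 CPM in *uvr8* WL. The differences of AT4G12735 were 2.78 (adjusted p = 0.0417) and 0.88 (adjusted p = 0.568), and those of AT2G18193 were 2.06 (adjusted p = 0.0323) and -0.31 (adjusted p = 0.791). AT1G60750 kept its difference in both, 2.45 (adjusted p = 0.00277) and 2.16 (adjusted p = 0.00361). Its level was 0.720 to 2.58 CPM in *uvr8* WL and 8.15 to 17.1 CPM in *uvr8* +UVB, while in Col it was 1.27 ± 0.117 CPM in WL and 2.22 ± 0.117 CPM in +UVB (SD, n = 3).

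Of the 151 rises 5 fell in Col (3.31%, against 6.79% of all genes tested), and of the 64 falls 2 rose there (3.12%, against 6.68%). Both shares are under those of all genes, and the genes below are given as single cases. AT3G25190, a vacuolar iron transporter-like gene, rose in *uvr8* from 12.2, 10.3 and 6.52 CPM to 26.3, 18.7 and 18.8 CPM, and fell in Col from 12.7 ± 4.35 to 2.66 ± 0.711 CPM (difference 3.39, adjusted p = 8.59e-07, and 2.62 under +FR). DIN11, a dark-inducible oxygenase, rose in *uvr8* from 2.96, 3.12 and 3.65 CPM to 4.56, 12.1 and 9.95 CPM and fell in Col from 7.00 ± 1.75 to 1.28 ± 0.315 CPM (difference 3.91). In the other direction NCED9, an enzyme of abscisic acid synthesis best known from seeds, fell in *uvr8* from 0.329, 0.347 and 0.720 CPM to 0.00, 0.0931 and 0.184 CPM and rose in Col from 0.450 ± 0.107 to 2.2 ± 0.447 CPM (difference -4.40, adjusted p = 1.62e-06, and -4.98 under +FR). KIN2, a cold-regulated gene, was at 78.9, 79.0 and 82.4 CPM in *uvr8* WL and 20.4, 45.4 and 22.4 CPM in *uvr8* +UVB (log2 fold change -1.44, adjusted p = 0.00519), against 96.6 ± 44.7 and 202 ± 17.7 CPM in Col (difference -2.50, adjusted p = 2.69e-05). Its close copy KIN1, with a difference of -3.71 (adjusted p = 7.71e-05), could share reads with it. AT3G25190, DIN11 and NCED9 were named after their values had been seen.

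Among the largest differences by the test, besides the MATE and ELIP genes, were the following. AT1G64340, a kinase gene, was at or under 3 counts in all 6 *uvr8* libraries, and its mean in Col was 0.00 CPM in WL and 4.17 CPM in +UVB (adjusted p of the difference 0.00491). PAP2 (AT1G66390), a MYB factor of anthocyanin synthesis, was at 0.0548, 0.149 and 0.144 CPM in *uvr8* WL and 0.00, 0.931 and 0.0461 CPM in *uvr8* +UVB, with a fitted difference of -8.41 that is no size, its WL libraries all being at or under 3 counts. AT4G18422, which encodes an uncharacterized protein, was likewise at or under 3 counts in every one of these libraries. SLAH1, a root anion channel homologue, was at 1.49 to 2.25 CPM in *uvr8* WL and 0.652 to 2.04 CPM in *uvr8* +UVB and had a log2 fold change of -5.77 in Col (difference 5.39, adjusted p = 3.01e-06). AACT1, annotated as an anthocyanin acyltransferase, had a log2 fold change of 1.88 in *uvr8* without passing the test and of -3.62 in Col (difference 5.5). Its level was 1.86, 1.09 and 0.576 CPM in *uvr8* WL and 0.842, 9.68 and 2.16 CPM in *uvr8* +UVB. Without the second +UVB library the difference was 4.03. PDF1.2, a defensin of the jasmonate and ethylene response, reached 9.49 CPM in the third +UVB library and at most 1.20 CPM in the other 5, and its difference of 5.26 was 2.14 (adjusted p = 0.319) without that library.

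The gene lists are of known responses. They were chosen with earlier results of these data known, so that their counts are descriptions and not a test. They are read against 0.722% of genes rising and 0.306% falling in *uvr8* and a median of -0.01 over all genes tested. Of 25 genes of oxidative stress, detoxification and heat shock 14 rose and 0 fell in *uvr8*, with a median log2 fold change of 1.38. In Col 13 rose, with a median of 1.1 over the whole list, and in *uvr8* under +FR 13 rose. Besides those above, OXI1, a kinase activated by hydrogen peroxide, was at 2.03, 3.52 and 1.97 CPM in WL and 12.6, 17.8 and 7.19 CPM in +UVB (2.32). OPR1, an oxophytodienoate reductase, rose from 109, 97.2 and 75.1 CPM to 422, 448 and 237 CPM (1.98). CYP81D8 and CYP81D11, cytochrome P450 genes induced by xenobiotics, rose by 3.09 and 1.39. The count of 14 was 11 to 15 when single libraries were left out, 4 in the fit to 6 libraries and 0 in the fit to the 12 *uvr8* libraries. APX1, GSTU19 and GSTF8 passed the test at under 2-fold (0.73, 0.74 and 0.83). The heat shock factor HSFA2 had a log2 fold change of 1.53 with an adjusted p of 0.0674.

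The genes of the UVR8 pathway moved little. Of 15 regulators 0 were called in *uvr8* and 7 rose in Col. HYH was at 23.1, 20.5 and 25.0 CPM in WL and 33.0, 30.3 and 31.8 CPM in +UVB, above the controls in every library but under the minimum fold (log2 fold change 0.47, standard error 0.12, adjusted p = 0.0235, against 2.28 in Col). HY5 was at 12.7, 14.9 and 15.6 CPM in WL and 18.4 CPM in each +UVB library (0.35, adjusted p = 0.193, against 2.83 in Col), and the repressor gene RUP1 had a log2 fold change of 0.28 (95% interval -0.06 to 0.62) against 3.67 in Col. For 13 of the 15 the 95% interval lay within a 2-fold change.

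Of 22 flavonoid genes 0 were called in *uvr8* and 22 rose in Col, with medians of 0.64 and 4.59. With no minimum fold 7 passed the test in *uvr8*, all upwards. CHS, chalcone synthase at the entry of the pathway, was at 312, 209 and 318 CPM in WL and 447, 480 and 374 CPM in +UVB (log2 fold change 0.63, standard error 0.16, adjusted p = 0.0256), and PAL1, the phenylalanine ammonia-lyase of phenylpropanoid supply, was at 220, 307 and 236 CPM and 595, 463 and 351 CPM (0.88, adjusted p = 0.00139). Under +FR the values of CHS and PAL1 were 0.11 and 0.35, neither passing the test, and MYB12, the activator of flavonol genes, was at 0.67 under WL and rose by 1.17 under +FR. The difference from Col was called for all 22 genes.

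Of 7 photoprotection and photorepair genes ELIP1 and ELIP2, whose products bind free chlorophyll and whose reads may be shared, rose in *uvr8*. ELIP1 was at 7.23, 6.84 and 7.72 CPM in WL and 26.4, 29.5 and 14.5 CPM in +UVB (log2 fold change 1.69, standard error 0.24, adjusted p = 0.000221), and ELIP2 at 4.66, 3.52 and 4.13 CPM and 13.5, 12.1 and 6.96 CPM (1.40, adjusted p = 0.00990). In Col the same genes rose by 8.69 and 9.33, and the differences were -7.00 (adjusted p = 7.06e-15) and -7.93 (adjusted p = 4.80e-14). The photolyase genes UVR2 and UVR3 were not called in *uvr8*. AT2G22590 and UGT73C1, both glycosyltransferases, likewise rose in *uvr8* (by 2.72 and 1.35) and far more in Col (by 9.21 and 5.17).

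Of 15 tested DNA damage genes ANAC044 and BRCA1 rose in *uvr8*. ANAC044, a NAC factor that holds back cell division after DNA damage, was at 0.0548, 0.595 and 0.336 CPM in WL and 2.60, 3.26 and 1.29 CPM in +UVB (log2 fold change 2.80, standard error 0.45, adjusted p = 0.000623), and under +FR+UVB it rose by 2.07. BRCA1, of homologous recombination, was at 4.44, 5.41 and 5.32 CPM in WL and 14.5, 10.6 and 10.5 CPM in +UVB (1.22, adjusted p = 0.000611) and had 0.68 under +FR+UVB (adjusted p = 0.0615). XRI1 (0.74) and DDB2 (0.39) passed the test under 2-fold. ANAC044 had a larger effect than in Col in WL (difference 2.04, adjusted p = 0.0130) but not under +FR (-0.76, adjusted p = 0.392). DDB2, a nucleotide excision repair gene, had a smaller one (-1.98, adjusted p = 9.14e-14).

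**Figure D5:**
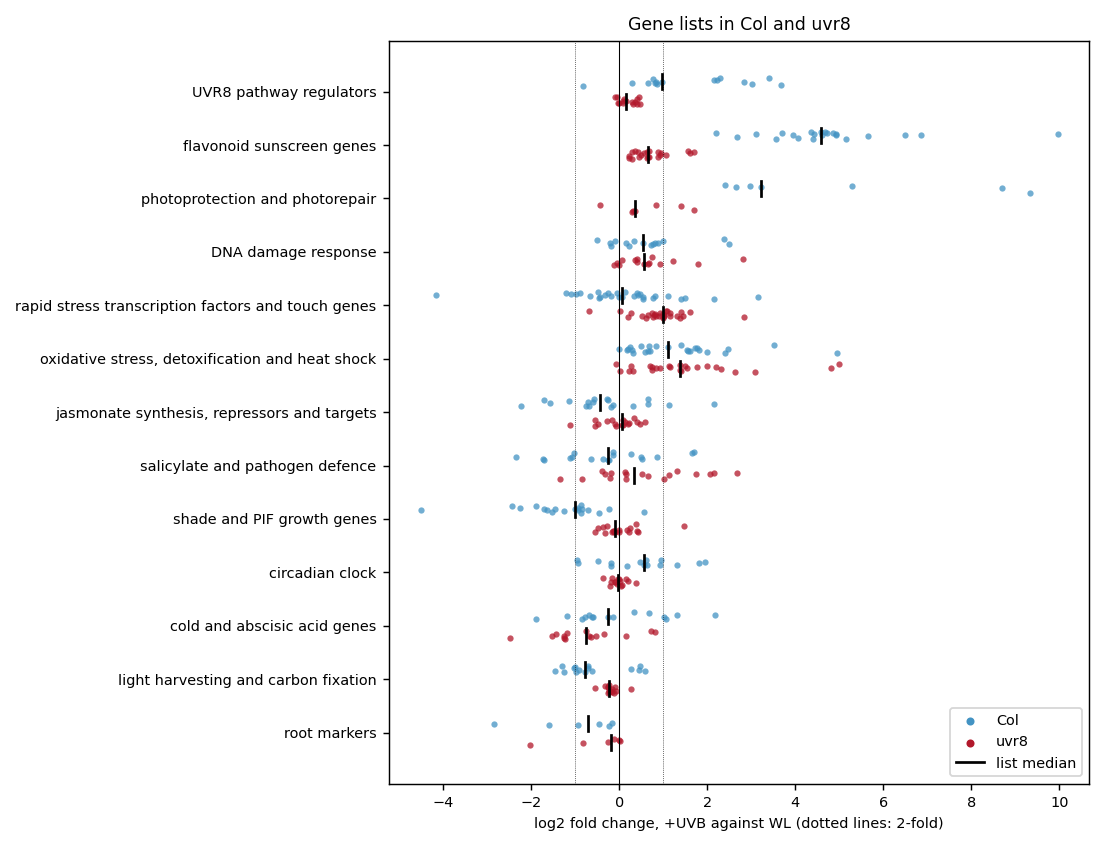
Log2 fold change of +UVB against WL (horizontal axis, dotted lines at 2-fold) for the tested members of 13 gene lists, in Col (blue, upper row of each list) and *uvr8* (red, lower row), with list medians as black bars. The flavonoid genes have medians of 4.59 in Col and 0.64 in *uvr8*, whereas the oxidative stress and detoxification genes have medians of 1.1 and 1.38.

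Rapid stress transcription factors had mostly positive values with wide spread. Of 29 tested, ZAT6 (log2 fold change 1.15, adjusted p = 0.0385) and ZAT11 (2.84, adjusted p = 0.0213), both zinc finger factors, rose, and the list median was 0.98 in *uvr8* and 0.06 in Col. In *hfr1*, which has UVR8, the list median was 0.93 and 9 members rose, while in Col 4 rose and 1 fell. ZAT11 was at 0.164, 0.645 and 0.336 CPM in WL and 2.88, 3.17 and 2.35 CPM in +UVB. WRKY33, a regulator of camalexin synthesis, was at 14.1, 44.4 and 13.6 CPM in WL and 45.9, 67.6 and 37.1 CPM in +UVB, and the overlap came from the second WL library, the one with high defence genes (1.06, adjusted p = 0.266). Of 18 salicylate and defence genes 0 were called, FRK1 being at 63.2, 48.8 and 15.8 CPM in +UVB (2.67, adjusted p = 0.352). The part of that WL library in these values was not tested beyond its omission, under which 252 genes rose and 76 fell.

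The remaining lists had 0 or 1 call each. Of 18 tested jasmonate genes 0 were called, and MYC2, the master regulator, passed the test under 2-fold with 42.0, 36.3 and 44.7 CPM in WL and 24.8, 29.6 and 29.6 CPM in +UVB (-0.55, adjusted p = 0.0408). Of 19 shade and PIF growth genes 0 were called in *uvr8* (median -0.10) and 10 fell in Col (median -1.02). For all 15 clock genes and all 15 light harvesting and carbon fixation genes the 95% interval in *uvr8* lay within a 2-fold change, with medians of -0.04 and -0.23. Of 15 cold and abscisic acid genes KIN2 fell and the median was -0.75. RD29A, a desiccation gene, was at 86.3, 68.0 and 99.7 CPM in WL and 21.8, 45.7 and 39.1 CPM in +UVB, lower in every treated library, but did not pass the test (-1.25, adjusted p = 0.126).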

How the data were processed

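Whole-seedling RNA was sequenced as 36 libraries from a stranded TruSeq kit. Per the labels' processing notes and the study's methods, the authors checked reads with FastQC 0.10.2, aligned them to TAIR10 with TopHat2 2.0.13, counted reads per gene with HTSeq 0.6.1 and normalized with edgeR 3.4.2. The strand setting of the counting is not given in the sources used here. The deposited counts are whole reads per gene. The deposited normalized values, a signal per gene, are CPM scaled by the trimmed mean of M-values (TMM), and served to fix the 20926 genes tested and to check the CPM recomputed here, which differed by at most 0.0283%.

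A model with 12 groups was fitted to the counts of all 36 libraries with edgeR 4.0.16 (R 4.3.3, glmQLFit with legacy settings, TMM). Genes were called at a fold change over 2 and a Benjamini-Hochberg adjusted p under 0.05, and the script was tested on simulated data. Standard errors were derived from the F statistic. Where every library of a group had 3 counts or fewer, no fitted fold is read as a size, and intervals cover counting and replicate error as the model estimates them. Groups came from the sample titles, and the p-values measure the spread between seedling samples. Genes named are the 12 largest rises and falls with separated groups and at least 50 normalized counts, genes called in both *uvr8* contrasts, list members, the 5 largest differences from Col in each direction, and UVR8; others are marked. The members and lists were chosen with earlier results of these data known. Promoters were read from TAIR10.1 (RefSeq), which also gave coordinates and symbols, since the count tables hold locus codes only. Depth over all libraries was 9749710 to 21175260 counts. Alternatives were other normalizations, tests (DESeq2 1.42.0 included), filters, library sets, fold minimums, a replicate block and the omission of each library; replicate numbers were not used as pairs.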

Additional observations from a re-analysis of the deposited data

Results flagged for a closer look

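The UV-B effect differed between genotypes by the test of the difference itself. In *uvr8* 1030 genes had a higher and 1042 a lower effect than in Col, and 735 had a higher and 866 a lower effect than in *hfr1*.

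Among the genes named by size, the difference of log2 effects (uvr8 minus Col) was called for UGT74E2 (3.04), AT2G04070 (4.35), AT2G04050 (5.2), AT4G12735 (2.78), AT2G18193 (2.06) and AT5G46890 (1.38). Of these genes, AT5G46890 alone was also called against *hfr1* under +UVB (1.67). The largest differences from Col were those of AACT1 (5.5), SLAH1 (5.39) and PDF1.2 (5.26) on the higher side. On the lower side were AT1G64340 (-11.06), PAP2 (-8.41), ELIP2 (-7.93), AT4G18422 (-7.20) and ELIP1 (-7.00). AT1G64340 and AT4G18422 were at or under 3 counts in every *uvr8* WL and +UVB library, and PAP2 in every *uvr8* WL library, so that these 3 fitted differences are not sizes. The tests against Col share the *uvr8* and Col libraries of WL and +UVB.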

How the results depend on the processing

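The number of genes called in *uvr8* under +UVB (215) stayed within 1.5 times under other normalizations, tests and filters, from 211 with all genes counted at least once to 301 with edgeR's likelihood ratio test, and was 9 in the fit to the 12 *uvr8* libraries and 47 in that to 6. Omitting single libraries gave 99 to 472. Without the second WL and the third +UVB library together, chosen after seeing the data, it was 698, and the mean effect over both backgrounds gave 674 against 409. With no minimum fold the counts were 560, 434 under +FR, 2073 for the mean effect, 6238 for the difference from Col, 5031 for that from *hfr1* and 166 for the shared rises, and with a minimum of 1.5 they were 346, 271, 796, 4190, 3369 and 127. The *uvr8* libraries alone gave 28 genes under +FR, 251 for the mean effect and 5 shared rises. Omissions gave 61 to 313 genes under +FR (89 without the second +FR library) and 44 to 106 shared rises. The difference between backgrounds was called for 0 genes, and for 1 by DESeq2 and 1 by the likelihood ratio test. The median of the Col rises in *uvr8* (0.21) was 0.28 with library size alone, 0.08 with no minimum fold and 0.13 with 1.5, and that of the Col falls (-0.24) was -0.12 with no minimum fold. The causes were not tested, beyond the libraries and thresholds that define each setting.

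Of 44 single genes tested in *uvr8*, AT5G46890 and AT5G46900 kept their call under every alternative run and 42 lost it under at least 1, with 0 reversed. A fit with the replicate number as a block called 207 genes (145 higher and 62 lower). Whether the replicate numbers pair the samples is unclear. Same-numbered WL and +UVB libraries of *uvr8* correlated at -0.178, 0.213 and 0.339 in their deviations from the group means. For the +FR and +FR+UVB libraries of *uvr8* the values were 0.134, 0.031 and 0.515, and for WL and +UVB of *hfr1* they were -0.028 to 0.026. In Col the values were 0.204, 0.230 and 0.377. With the block the difference from Col was called for 2056 genes against 2072. Low counts limit 26 of the rises and 12 of the falls, which stayed under 50 normalized counts.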
